A study of Mus musculus with 3 samples.

Results

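The genes described here are 9 members of the antiviral interferon response, Ifit1, Ifit2, Ifit3, Isg15, Rsad2, Irf7, Stat2, Ifih1 and Ddx58, taken by symbol from 3 tables of gene counts, in which each symbol matched 1 of 29625 gene identifiers. The tables come from epididymal fat of male C57BL/6J mice, bought at 5 weeks of age and kept for 1 week before the experiment. Ctrl mice ate the ordinary diet. Mid_Ob and Ob mice both ate a diet with 60% fat, and stood over 10% (Mid_Ob) and over 20% (Ob) above the mean control weight. All mice were wild type, and at each stage nuclei from the combined fat of 8 animals made up 1 library for droplet sequencing. The stages were taken at successive times and only the later ones ate the fat diet, so diet, age and time cannot be told apart. Since each stage is 1 library, nothing checks a difference against the spread between mice, the stages were not tested against each other, and all intervals below are 95% intervals that cover counting error only.

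Type I interferons bind a receptor of the subunits Ifnar1 and Ifnar2, whose kinases Jak1 and Tyk2 phosphorylate Stat2. Stat2 acts with Irf9 in a complex that binds the interferon-stimulated response element before its target genes. Ifih1 (MDA5) and Ddx58 (RIG-I) are cytosolic helicases that sense viral double-stranded RNA and start interferon production, and Irf7 is the transcription factor that amplifies it. Among the induced effectors, Ifit1, Ifit2 and Ifit3 bind foreign RNA or block its translation, Isg15 is a ubiquitin-like protein that is joined to other proteins, and Rsad2 (viperin) makes a nucleotide analogue that stops viral polymerases. In fat, interferon signalling has been studied in macrophages and adipocytes during obesity.

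The members lie on 6 chromosomes of the mouse genome (GRCm38, GENCODE M21 annotation, used here for positions because the build of the study is not given in the sources used here). The 3 Ifit genes are neighbours on the plus strand of chromosome 19, with Ifit2 at chr19:34550694-34576419, Ifit3 at chr19:34583531-34588731 and Ifit1 at chr19:34640871-34650009. Ifit3 has a near-identical copy, Ifit3b, so its reads may be split between both and its counts are uncertain. Irf7 (chr7:141262706-141266481, minus strand) overlaps Phrf1 on the plus strand, and whether counting used the strand is not given in the sources used here. The others are Isg15 (chr4:156199424-156200818, minus), Ddx58 (chr4:40203773-40239828, minus), Ifih1 (chr2:62595798-62646255, minus), Stat2 (chr10:128270559-128292849, plus) and Rsad2 (chr12:26442746-26456452, minus).

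The start regions of most members share the letters of the response element, a feature that was not used to choose them. In RefSeq promoter windows (GRCm38.p6) of 300 bases, from 250 bases before to 50 after the start, all 9 members were found, and GAAANNGAAA on either strand (TTTCNNTTTC when read on the other) occurred in 7 of 9. Over all genes with a window, 1079 of 27025 (3.99%) held a match. The matches began 104 and 85 bases before the start in Ifit1, 156 and 122 before it in Ifit3, 222 before it in Stat2 and 120 before it in Rsad2. In Isg15 3 overlapping matches began 78, 72 and 66 bases before the start. In Ddx58 and Ifih1 the match lay 2 and 32 bases after it, and the windows of Ifit2 and Irf7 held none. The stretches with a match before the start are shown 5′ to 3′ on the strand of the gene, with the matches in capitals, because they show what 5 members have in common.
Ifit1, chr19:34640775-34640823, plus strand: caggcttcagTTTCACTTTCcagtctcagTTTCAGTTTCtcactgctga
Ifit3, chr19:34583363-34583426, plus strand: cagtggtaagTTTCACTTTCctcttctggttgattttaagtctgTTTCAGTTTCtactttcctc
Isg15, chr4:156200865-156200906, minus strand: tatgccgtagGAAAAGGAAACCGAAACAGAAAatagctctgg
Stat2, chr10:128270266-128270295, plus strand: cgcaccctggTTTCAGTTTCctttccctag
Rsad2, chr12:26456553-26456582, minus strand: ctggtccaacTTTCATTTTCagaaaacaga

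Per library, the tables summed to 53980929 (Ctrl), 57665213 (Mid_Ob) and 111595518 (Ob) UMIs, which count single transcript molecules. Levels are CPM, counts of a gene per 1000000 UMIs of the library, class or cluster. Each library had been clustered on its own, into 14, 11 and 21 clusters (46 in all), and the clusters were named here from marker genes, so these names can differ from those of the study. Adipocyte-like clusters carried the fat cell markers strongly in each library. However, 47.0% of the Ctrl UMIs and 30.3% of the Mid_Ob UMIs lay in clusters named after cells of testis or epididymis. No Ob cluster was given such a name. In the clusters so named the 9 members summed to 82.3 CPM in Ctrl and 165.8 CPM in Mid_Ob. Library comparisons are therefore also given without them where that changes their direction or call. Unnamed clusters were kept there. Of these, cluster 1 of Ctrl carried 14 of 14 germ cell markers. C230072F16Rik, a leading gene of the epididymal cluster 8 of Ctrl, also led clusters 11 of Mid_Ob and 17 of Ob. Comparisons without the named clusters may thus still hold such transcripts. Nuclei were those kept by Cell Ranger, so doublets and free RNA were not removed here, and counts of single nuclei were not used.

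The 9 members did not move together over the stages. Their sum was 164.9 CPM in Ctrl, 183.2 CPM in Mid_Ob and 188.3 CPM in Ob. Without the testis and epididymis clusters it was 238.3 CPM in Ctrl, 190.7 CPM in Mid_Ob and 188.3 CPM in Ob, which turns the direction round. In bulk sums such as these, fewer cells of a type and less RNA per cell cannot be told apart. Stat2, Ifih1 and Ddx58 held 82.2% of the 40484 counts, so the sum mostly follows these 3. Per kilobase of exon, the level over all libraries was highest for Stat2 at 11.9 CPM, followed by Ddx58 at 5.73, Ifih1 at 4.70, Isg15 at 3.09, Ifit3 at 2.52, Rsad2 at 2.17, Ifit2 at 1.88, Irf7 at 1.47 and Ifit1 at 1.22 CPM per kilobase. Per kilobase of the whole gene Stat2 was again first at 3.15 CPM, followed by Isg15 at 1.67 and Irf7 at 1.47 CPM per kilobase, and whether reads in introns were counted is not given in the sources used here.

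Among the effectors, Isg15 was the member with the largest ratio between Ob and Ctrl. It stood at 0.945 CPM (0.703 to 1.24) in Ctrl, 2.13 CPM (1.77 to 2.54) in Mid_Ob and 3.11 CPM (2.79 to 3.45) in Ob, and over all clusters none of the 3 intervals overlap. Once testis and epididymis clusters were dropped, the Ctrl level (1.47 CPM, 1.06 to 1.99) and the Mid_Ob level (1.96 CPM, 1.56 to 2.45) overlap, and their ratio of 1.34 (0.91 to 1.99) was not called. The ratio was 3.29 (2.45 to 4.51) for Ob over Ctrl and 2.12 (1.53 to 2.99) without the testis and epididymis clusters. Ifit1 went the other way, with 4.72 CPM in Ctrl, 2.45 CPM in Mid_Ob and 2.92 CPM in Ob. Its ratio was 0.62 (0.52 to 0.73) for Ob over Ctrl, and 0.40 (0.33 to 0.48) without those clusters.

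Rsad2 had its lowest level in the middle stage. It stood at 8.69 CPM (7.92 to 9.51) in Ctrl, 3.28 CPM (2.83 to 3.78) in Mid_Ob and 12.96 CPM (12.3 to 13.6) in Ob. The ratio was 0.38 (0.32 to 0.45) for Mid_Ob over Ctrl and 3.95 (3.40 to 4.63) for Ob over Mid_Ob, and 0.33 (0.28 to 0.40) and 2.93 (2.5 to 3.44) without the testis and epididymis clusters. Ob and Ctrl were closer, with a ratio of 1.49 (1.34 to 1.66) over all clusters and 0.97 (0.87 to 1.09) without those of testis and epididymis.

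The other 2 effectors, of the Ifit family, were lowest in Mid_Ob over all clusters, which for Ifit2 does not hold without those of testis and epididymis. Ifit3 was listed at 4.04 CPM in Ctrl, 2.98 CPM in Mid_Ob and 5.31 CPM in Ob, and Ifit2 at 8.95 CPM in Ctrl, 6.52 CPM in Mid_Ob and 7.03 CPM in Ob. Among the sensors, Ifih1 stood at 40.1 CPM in Ctrl, 30.1 CPM in Mid_Ob and 41.8 CPM in Ob, whereas Ddx58 stood at 35.0 CPM in Ctrl, 47.2 CPM in Mid_Ob and 39.5 CPM in Ob. Thus the 2 RNA helicases went in opposite directions at the middle stage, with ratios of 0.75 (0.70 to 0.80) for Ifih1 and 1.35 (1.27 to 1.43) for Ddx58 in Mid_Ob over Ctrl. Without the testis and epididymis clusters these ratios were 0.61 (0.57 to 0.66) and 0.96 (0.89 to 1.03). The transcription factors stayed within 1.5-fold between stages, with Stat2 at 58.1 CPM in Ctrl, 82.7 CPM in Mid_Ob and 69.8 CPM in Ob and Irf7 at 4.39 CPM in Ctrl, 5.88 CPM in Mid_Ob and 5.95 CPM in Ob. In 5 of these 6 genes the direction of Ob over Ctrl turns round without the testis and epididymis clusters. The ratio was then 0.86 (0.82 to 0.90) in place of 1.2 for Stat2 and 0.90 (0.76 to 1.06) in place of 1.36 for Irf7. It was 0.69 (0.66 to 0.73) in place of 1.04 for Ifih1, 0.81 (0.76 to 0.86) in place of 1.13 for Ddx58 and 0.84 (0.71 to 1.0) in place of 1.32 for Ifit3, and none of the 5 was called either way.

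**Figure D1:**
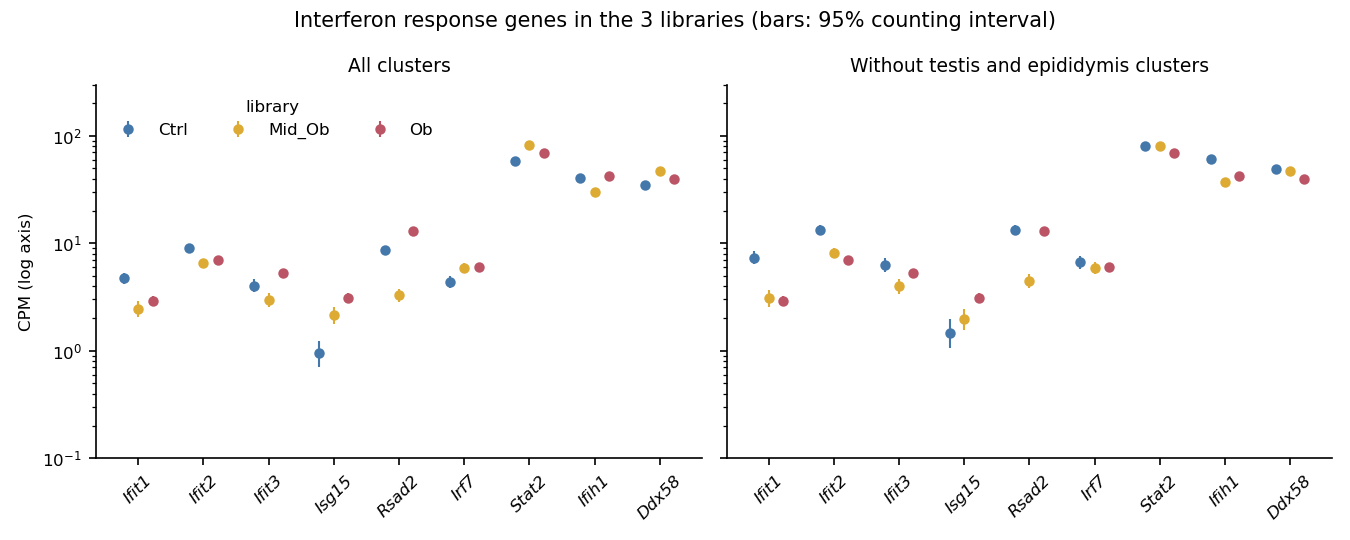
Level of each member in CPM (log axis) in the Ctrl, Mid_Ob and Ob libraries, over all clusters (left) and without the testis and epididymis clusters (right). Points are 1 library each and bars are 95% counting intervals. Isg15 stands at 0.945 CPM in Ctrl, 2.13 CPM in Mid_Ob and 3.11 CPM in Ob, and Rsad2 dips to 3.28 CPM in Mid_Ob.

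A member was called higher or lower when its ratio passed 1.5-fold with at least 50 counts in the pair. In Mid_Ob over Ctrl 1 of 9 members was called higher (Isg15) and 2 lower (Ifit1 and Rsad2), against 17.3% of all genes with 50 counts called higher and 35.5% called lower. In Ob over Mid_Ob 2 members were called higher (Ifit3 and Rsad2) and 0 lower, against 17.5% and 27.3% of all genes. In Ob over Ctrl 1 member was called higher (Isg15) and 1 lower (Ifit1), against 18.1% and 43.5% of all genes. The median log2 ratio of the members was -0.41, 0.26 and 0.26 in these comparisons, and that of all genes -0.16, -0.09 and -0.35. When the ratios were scaled by that median of all genes, 5 members were called higher and 0 lower in Ob over Ctrl, against 28.9% and 36.6% of all genes, and 3 higher and 2 lower in Mid_Ob over Ctrl, against 22.1% and 32.1%. The scaled ratios of Ob over Mid_Ob gave 3 higher and 0 lower, against 20.2% and 24.7% of all genes. Without the testis and epididymis clusters 0 members were called higher and 5 lower in Mid_Ob over Ctrl (Ifit1, Ifit2, Ifit3, Rsad2 and Ifih1), against 15.6% and 22.9% of all genes. There 2 were called higher (Isg15 and Rsad2) and 0 lower in Ob over Mid_Ob, against 15% and 24.8%, and Ifit3 had a ratio of 1.34 and was not called. In Ob over Ctrl 1 was then called higher (Isg15) and 2 lower (Ifit1 and Ifit2), against 17% and 31.9% of all genes.

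The sum of the 9 members was highest in the mesothelial-like clusters, the lining layer of the abdominal cavity, and in a few clusters of mixed markers. The mesothelial-like sum was 381.9 CPM in Ctrl, 424.5 CPM in Mid_Ob and 316.7 CPM in Ob. In each library this was the highest sum of any named class. Lymphocyte-like clusters summed to 294.9 CPM in Ctrl, 311.5 CPM in Mid_Ob and 266.8 CPM in Ob, and macrophage-like clusters to 242.2 CPM in Ctrl, 236.7 CPM in Mid_Ob and 205.5 CPM in Ob. Endothelial-like clusters summed to 275.7 CPM in Mid_Ob and 293.6 CPM in Ob, and fibroblast or progenitor-like clusters to 279.3 CPM in Mid_Ob and 255.0 CPM in Ob, whereas no Ctrl cluster was given either name. Adipocyte-like clusters, the largest class by UMIs among those of fat, held a low and nearly equal sum of 156.9 CPM in Ctrl, 156.1 CPM in Mid_Ob and 156.5 CPM in Ob. The Ob value pools unlike clusters, with 130.3 CPM (125.1 to 135.7) in cluster 4 and 152.2 CPM (143.5 to 161.2) in cluster 7. Cluster 5, the largest of them, had 170.3 CPM (166.1 to 174.6). The 4 germ cell-like clusters of Ctrl had the lowest sums of that library, between 44.1 and 83.6 CPM.

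The order within a library is only partly resolved by the counts. In Ctrl the mesothelial-like cluster 3 (391.1 CPM, 372.1 to 410.8), the unnamed cluster 4 (364.2 CPM, 342.1 to 387.3) and the mesothelial-like cluster 5 (357.8 CPM, 328.7 to 388.8) overlap in their intervals. By the 6 members other than Stat2, Ifih1 and Ddx58, cluster 4 of Ctrl came first at 126.3 CPM (113.4 to 140.2). Cluster 5 then stood at 88.5 CPM (74.3 to 104.6) and cluster 3 at 84.4 CPM (75.7 to 93.9). In Mid_Ob the mesothelial-like cluster 6 stood alone at 424.5 CPM (398.5 to 451.7), above the lymphocyte-like cluster 10 at 311.5 CPM (267.0 to 361.4). In Ob the unnamed cluster 6 came first with 373.2 CPM (352.6 to 394.7), above the mesothelial-like cluster 12 with 316.7 CPM (296.1 to 338.4). Of the single members, however, 1 of 9 (Ifit1) had its highest Ob level in cluster 12, which came at place 4 by the sum of the 6 members other than Stat2, Ifih1 and Ddx58. Cluster 6 of Ob had Clec9a and Flt3, genes of dendritic cells, as its leading genes, but carried 8 of 14 macrophage and 12 of 14 lymphocyte markers besides 8 of 8 dendritic ones. Cluster 4 of Ctrl carried 14 of 14 fibroblast and 12 of 12 endothelial markers.

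**Figure D2:**
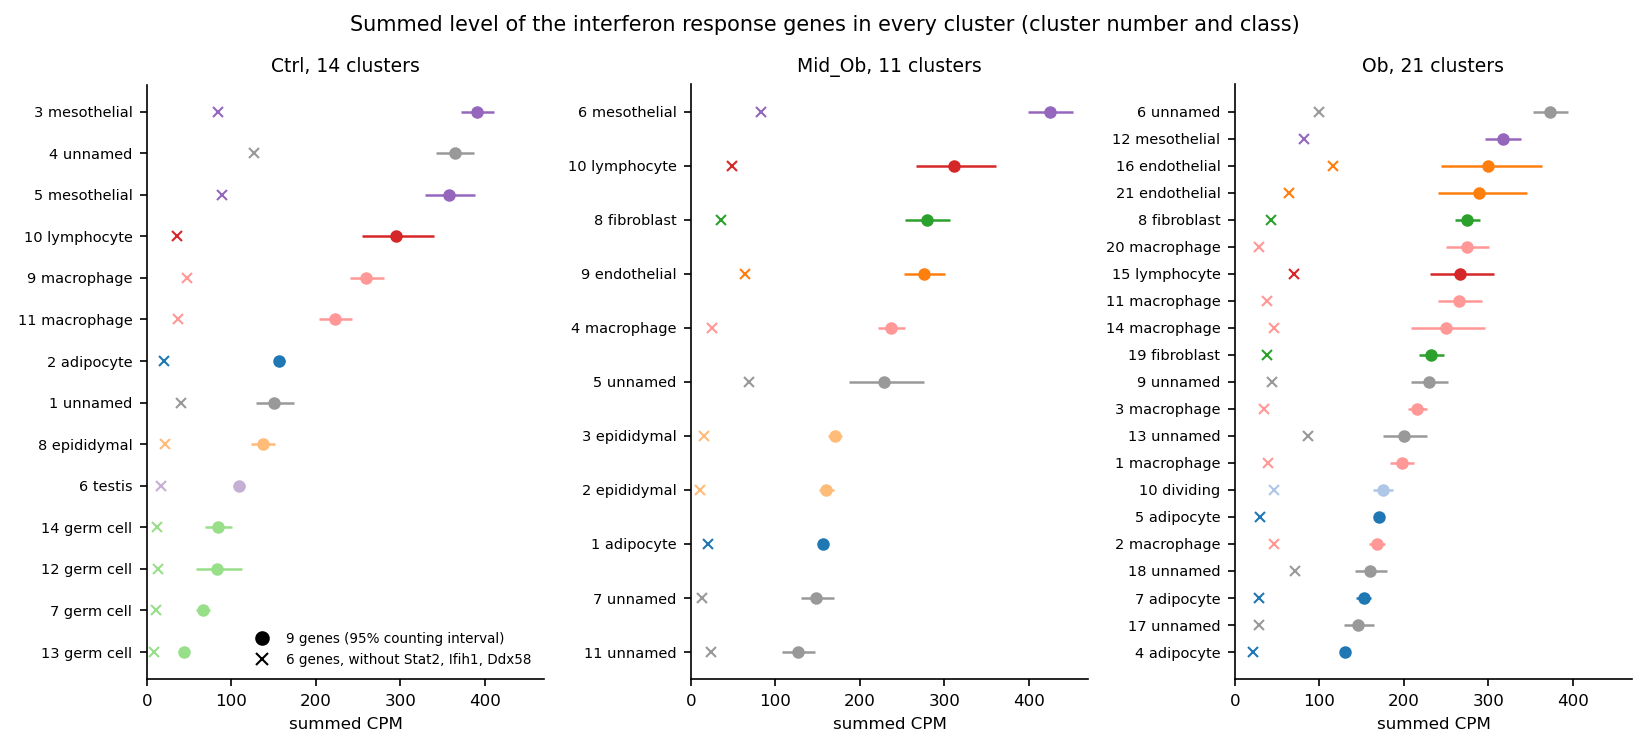
Summed CPM of the 9 members in every cluster of the 3 libraries (circles, with 95% counting intervals) and of the 6 members other than Stat2, Ifih1 and Ddx58 (crosses), coloured by class. Mesothelial-like clusters lie at or near the top of each library, from 316.7 CPM in Ob to 424.5 CPM in Mid_Ob, and germ cell-like clusters of Ctrl at the bottom.

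The enrichment in mesothelial-like clusters was strongest for Ifit1 and Ifit2. Ifit1 stood at 16.4 CPM in the Ctrl mesothelial-like clusters against 3.37 CPM in the rest of that library, at 15.8 against 1.88 CPM in Mid_Ob and at 11.9 against 2.69 CPM in Ob. The ratios to the rest were 4.87 (3.73 to 6.32), 8.42 (5.62 to 12.4) and 4.43 (2.99 to 6.36) in that order of stages. Ifit2 was 4.43 (3.65 to 5.37) times the rest in Ctrl, 6.0 (4.60 to 7.74) times in Mid_Ob and 3.55 (2.71 to 4.58) times in Ob. By single clusters, however, Ifit2 was highest in the unnamed cluster 4 of Ctrl (37.7 CPM) and the lymphocyte-like cluster 15 of Ob (28.2 CPM). In Ob the interval of the highest Ifit1 cluster, the mesothelial-like cluster 12, overlapped those of 8 other clusters. Rsad2 was 0.89 (0.61 to 1.26) times the rest in Ob. Stat2, the signal transducer, was less uneven, at 2.57 (2.36 to 2.80) times the rest in Ctrl, 2.13 (1.92 to 2.36) times in Mid_Ob and 1.44 (1.27 to 1.63) times in Ob. Since the clusters were built from the expression of all genes, these ratios describe the clusters and are no test.

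Ddx58, Rsad2, Ifit3 and Isg15 had leading clusters outside the mesothelial-like class in each library. In Ctrl both Ifit3 (17.2 CPM) and Isg15 (4.31 CPM) were highest in the unnamed cluster 4, with intervals that overlapped those of 4 and 9 other clusters. Their leading clusters in Mid_Ob and Ob are given below. Ddx58 was highest in the lymphocyte-like cluster of each library, at 102.0 CPM (78.7 to 130) in Ctrl, 137.9 CPM (109 to 172) in Mid_Ob and 88.5 CPM (68.4 to 113) in Ob. In Mid_Ob no other cluster overlapped it, whereas 1 did in Ctrl and 9 did in Ob. Rsad2 peaked in the unnamed cluster 4 of Ctrl (40.9 CPM), in the endothelial-like cluster 9 of Mid_Ob (18.4 CPM) and in cluster 16 of Ob (74.8 CPM). Cluster 16 of Ob is small, with 0.300% of the UMIs of its library, and carries adipocyte and fibroblast markers beside the endothelial ones.

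In Mid_Ob and Ob, Isg15 was highest in clusters rich in mitochondrial transcripts, which were given no name, and in cluster 16 of Ob. It stood at 20.9 CPM in clusters 13 and 16 and 16.3 CPM in cluster 18 of Ob, and at 12.8 CPM in cluster 5 of Mid_Ob. Some of these levels rest on few counts. The endothelial-like clusters of Ob, which include cluster 16, held 8 Isg15 counts, and the unnamed clusters of Mid_Ob, which include cluster 5, held 8. The interval of the highest cluster overlapped those of 8 other clusters in Ob and of 4 in Mid_Ob, so the order is not resolved. The mitochondrial share of UMIs was 6.18%, 1.35% and 8.39% in clusters 13, 16 and 18 of Ob, against 0.472% in the whole Ob library. In cluster 1 of Ctrl, with a share of 1.85%, Isg15 stood at 0.858 CPM from 1 count. Isg15 was not alone in this. Ifit3 was highest in cluster 5 of Mid_Ob (10.7 CPM) and cluster 18 of Ob (14.7 CPM), and Irf7 in cluster 18 of Ob (18.5 CPM). Their intervals overlapped those of 8, 9 and 10 other clusters, in that order. The part of mitochondria-rich clusters in the levels of these 3 genes was not tested. Without the 4 richest clusters (1 of Ctrl, 5 of Mid_Ob, 13 and 18 of Ob) Isg15 had a ratio of 2.84 for Ob over Ctrl and was called higher. That ratio keeps cluster 16 of Ob and the testis and epididymis clusters.

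**Figure D3:**
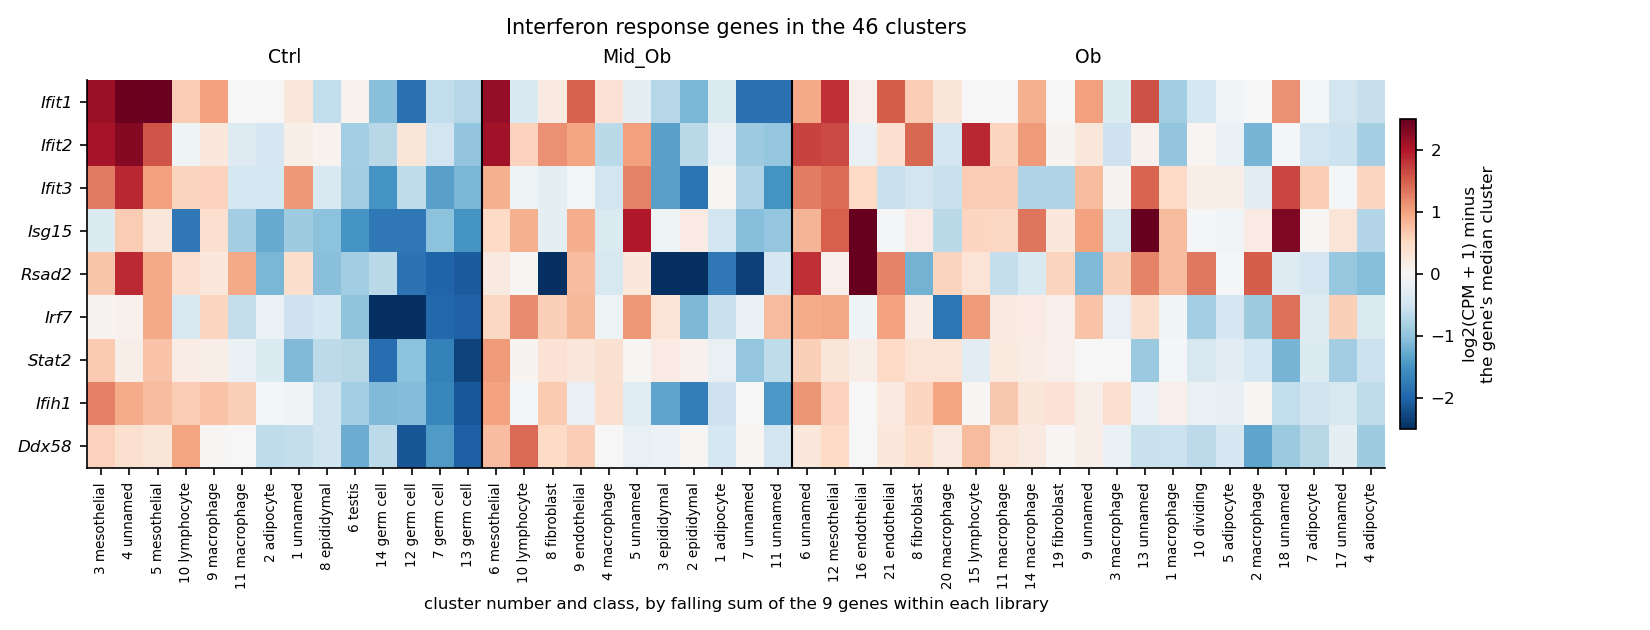
Level of each member in each of the 46 clusters, as log2(CPM + 1) minus the median of that gene over the clusters (red above, blue below). Within each library clusters run by falling sum of the 9 members. Isg15 has its strongest red in clusters 13, 16 and 18 of Ob, and Rsad2 in cluster 16 of Ob.

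Over the 46 clusters the members varied in part together. The correlation of log2(CPM + 5) of each member with the mean of the other 8 was 0.81 for Ifit1, 0.76 for Ifih1, 0.75 for Ifit2, 0.70 for Stat2 and Ddx58, 0.68 for Ifit3, 0.65 for Irf7, 0.55 for Rsad2 and 0.45 for Isg15. These are descriptions, since clusters of a library share its depth and free RNA. Stat2 and Ifih1 correlated at 0.81, and Stat2 and Isg15 at 0.12. Among 16594 genes with at least 500 counts, the 10 whose pattern over the clusters was most like the mean of the members were Tmem63a (0.87), Sgk1 (0.83), Gbp3, Il6st, Gbp7 and Pdcd6ip (each 0.82), Lgals9, Ifnar2 and Lrrk1 (each 0.81) and Il1rap (0.80). Without the testis and epididymis clusters 4 of these 10 stayed among the 10 most alike.

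Macrophage-like clusters held 8.85%, 6.15% and 19.6% of the UMIs at the stages Ctrl, Mid_Ob and Ob, and within them no member was called higher in Ob than in Ctrl. For Ob over Ctrl 0 members were called higher and 2 lower, against 13.7% of all genes called higher and 24.1% called lower. Ifit1 stood at 2.24 CPM in Ob against 4.61 CPM in Ctrl (ratio 0.49, 0.29 to 0.85), and Ifit2 at 4.26 CPM in Ob against 6.91 CPM in Ctrl (ratio 0.62, 0.41 to 0.95). Stat2 was at 75.5 CPM in Ob against 80.8 CPM in Ctrl, with a ratio of 0.93 (0.84 to 1.05). The ratios moved with the Ctrl cluster used. Without cluster 9 of Ctrl the ratio was 0.85 for Ifit1, 1.56 for Ifit3 and 3.33 for Isg15. Without cluster 11 it was 0.35, 0.64 and 0.81 for the same 3 genes. Clusters 9 and 11 together held 22 counts of Ifit1, 22 of Ifit3 and 11 of Isg15, too few to say that these clusters differ.

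Rsad2 had the widest ratio between stages of all members within macrophage-like clusters. It stood at 16.7 CPM (13.3 to 20.8) in Ctrl, 7.61 CPM (5.01 to 11.1) in Mid_Ob and 20.8 CPM (18.9 to 22.8) in Ob. In Mid_Ob over Ctrl it was the 1 member called lower (ratio 0.45, 0.28 to 0.71) among 5 with 50 counts, and 0 were called higher, against 14.8% and 8.71% of all genes. In Ob over Mid_Ob 3 members were called higher and 1 lower, against 13.1% and 18.4% of all genes. These were Rsad2 with a ratio of 2.73 (1.85 to 4.19), Ifit3 with 1.62 (0.82 to 3.67), Isg15 with 1.73 (0.75 to 4.89) and, lower, Ifit1 with 0.61 (0.33 to 1.23), and only the interval of Rsad2 leaves out 1.

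The 6 macrophage-like clusters of Ob were not alike in their members. Cluster 2, led by Gpnmb and Mmp12, genes of lipid-laden macrophages, had the highest Rsad2 of the 6 at 31.5 CPM but the lowest Ddx58 at 19.8 CPM, Ifit2 at 2.52 CPM and Stat2 at 58.5 CPM. Cluster 20, led by the Cd209 family, and cluster 11, led by Lyve1, a gene of resident macrophages, had Stat2 at 101.2 and 95.3 CPM and Ifih1 at 84.8 and 67.9 CPM. Their Rsad2 levels were 15.8 and 6.52 CPM. Clusters 1, 3 and 14 had Rsad2 at 18.6, 16.3 and 7.73 CPM. Cluster 14 is small, with 0.464% of the UMIs of its library. It held 24 counts of the 6 members other than Stat2, Ifih1 and Ddx58, so its Rsad2 level rests on few counts. The dividing cluster 10, in which macrophage markers summed to 4736 CPM, had Rsad2 at 27.4 CPM. Without cluster 2 the Rsad2 ratio of Ob over Ctrl in macrophage-like clusters was 0.93, in place of 1.24 (0.98 to 1.59).

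In adipocyte-like clusters 3 members of low level were higher in Ob, while the abundant ones stayed within 1.5-fold. Against Ctrl, 3 of 9 members were called higher and 0 lower in Ob, against 18.8% and 27.6% of all genes. Ifit3 stood at 5.21 CPM in Ob against 2.64 CPM in Ctrl (ratio 1.97, 1.39 to 2.86). Isg15 stood at 1.96 CPM from 121 counts in Ob against 0.440 CPM from 6 counts in Ctrl (ratio 4.44, 1.98 to 12.4), and Rsad2 at 8.18 CPM in Ob against 4.18 CPM in Ctrl (ratio 1.96, 1.49 to 2.62). Stat2 had a ratio of 0.99 (0.92 to 1.07), Ddx58 of 1.04 (0.94 to 1.15) and Ifih1 of 0.81 (0.73 to 0.89). In Mid_Ob over Ctrl 1 member was called higher (Ifit3, 1.53, 1.04 to 2.29) and 1 lower (Rsad2, 0.56, 0.38 to 0.81) of 8 with 50 counts, against 15.3% and 20.2% of all genes. In Ob over Mid_Ob 1 was called higher (Rsad2, 3.51, 2.70 to 4.64) and 0 lower, against 15.3% and 19% of all genes.

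Part of this rests on cluster 5 of Ob, the largest adipocyte-like cluster. Its 14 macrophage markers summed to 2569 CPM, against 516 CPM in cluster 4 and 503 CPM in cluster 7 of Ob, 763 CPM in Mid_Ob and 1288 CPM in Ctrl, and none of the 14 was at 0 in any of these clusters. Rsad2 stood at 10.1 CPM in cluster 5, 4.53 CPM in cluster 4 and 7.53 CPM in cluster 7. Without cluster 5 the Rsad2 ratio of Ob over Ctrl was 1.29 and no longer called, that of Ifit3 was 2.38, and Isg15 had a ratio of 3.39 but fewer than 50 counts in the pair. The part of macrophage transcripts in these ratios was not tested.

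**Figure D4:**
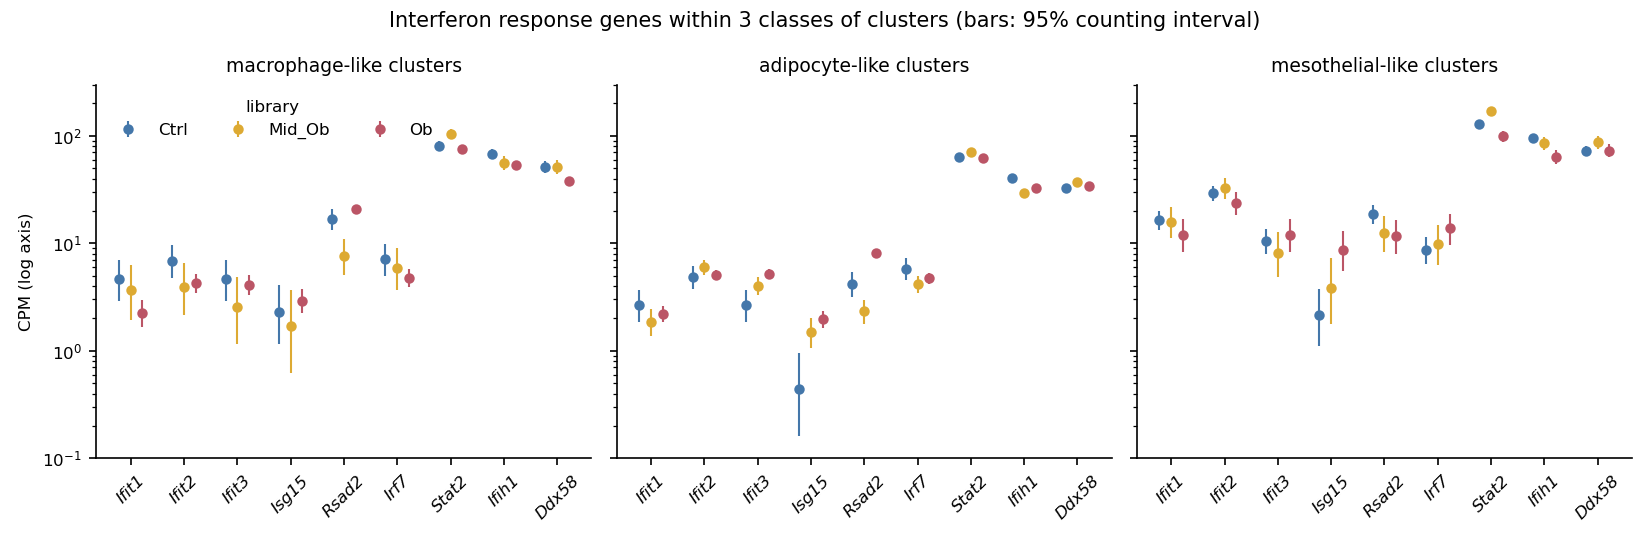
Level of each member in CPM (log axis) in clusters of macrophage-like, adipocyte-like and mesothelial-like nuclei of the Ctrl, Mid_Ob and Ob libraries, with 95% counting intervals. In macrophage-like clusters Rsad2 stands at 16.7 CPM in Ctrl, 7.61 CPM in Mid_Ob and 20.8 CPM in Ob, and in adipocyte-like clusters Stat2, Ifih1 and Ddx58 stay within 1.5-fold between stages.

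In mesothelial-like clusters Stat2 was lower in Ob than in the other stages. It stood at 128.5 CPM (119 to 138) in Ctrl, 168.6 CPM (152 to 186) in Mid_Ob and 99.4 CPM (88.0 to 112) in Ob, with a ratio of 0.59 (0.50 to 0.69) for Ob over Mid_Ob and 0.77 (0.67 to 0.89) for Ob over Ctrl. For Ob over Ctrl 1 of 8 members with 50 counts was called higher and 1 lower, against 15.3% and 18.1% of all genes. Irf7 was higher in Ob with 13.7 CPM against 8.74 CPM in Ctrl (ratio 1.57, 1.0 to 2.45), and Rsad2 lower with 11.6 CPM against 18.5 CPM (ratio 0.62, 0.41 to 0.94). Isg15 had a ratio of 4.06 (1.95 to 8.90) from 24 counts in Ob and 12 in Ctrl, under the minimum for a call. Which organ these lining cells came from was not tested.

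In the stromal and vascular classes the Rsad2 level in Ob also stood above that in Mid_Ob, from few counts. In fibroblast or progenitor-like clusters it stood at 9.56 CPM from 85 counts in Ob against 0.650 CPM from 1 count in Mid_Ob (ratio 14.7, 2.57 to 588). The Mid_Ob side is cluster 8, led by Sema3e, Has2os, Pamr1 and Pi16. Clusters 8 and 19 of Ob were led instead by Nox4, Galnt17 and Gpc6, so that ratio may compare unlike stromal cells. Sema3e also led the unnamed cluster 9 of Ob, where Rsad2 stood at 4.31 CPM from 8 counts. In endothelial-like clusters Rsad2 stood at 47.6 CPM in Ob against 18.4 CPM in Mid_Ob (ratio 2.59, 1.57 to 4.26). Of the 36 Ob counts 25 lay in cluster 16, which is of mixed markers. Without that cluster the Ob level was 26.1 CPM from 11 counts and the ratio 1.42 (0.65 to 2.86), with fewer than 50 counts in the pair. Cluster 21, the Ob cluster then left, had Mmrn1, Flt4 and Prox1 among its leading genes. Cluster 9 of Mid_Ob had Ptprb, Flt1, Rgs5 and Prox1, so this ratio may compare unlike vessel cells. Within the fibroblast or progenitor-like class of Ob, cluster 19 with 15.8 CPM carried macrophage markers at 3865 CPM, and cluster 8 with 4.02 CPM carried them at 468 CPM, and the part of these transcripts was not tested. In lymphocyte-like clusters the 3 members with 50 counts in a pair were Stat2, Ifih1 and Ddx58, and the ratio of Ddx58 was 0.64 (0.45 to 0.90) for Ob over Mid_Ob. That of Ifih1 was 0.63 (0.36 to 1.06) for Mid_Ob over Ctrl and 0.65 (0.40 to 1.06) for Ob over Ctrl, and both intervals include 1.

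The interferons themselves were hardly read. Of the 8 interferon genes of the list that the tables hold, Ifnb1 (interferon beta) had 1 count in all, in Ctrl, and Ifnab had 5 counts in Ctrl, 0 in Mid_Ob and 1 in Ob. Ifng, the interferon of lymphocytes, had 9 counts in Ctrl, 34 in Mid_Ob and 23 in Ob, of which 3, 23 and 11 lay in the lymphocyte-like clusters. Ifnk had 21 counts (0.389 CPM) in Ctrl, 42 (0.728 CPM) in Mid_Ob and 144 (1.29 CPM) in Ob. Ifnk was called higher in Ob over Ctrl, against 18.1% of all genes. The Ifng level was 0.167 CPM in Ctrl, 0.590 CPM in Mid_Ob and 0.206 CPM in Ob. It was called lower in Ob over Mid_Ob, against 27.3% of all genes. Both calls stood without the testis and epididymis clusters, against 17% and 24.8% of all genes. Levels this low do not allow a statement on the presence of interferon in the tissue.

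More genes of the wider pathway were called higher than lower in the Ob library, but fewer without the testis and epididymis clusters. Of 40 other genes induced by type I interferon, 21 were called higher and 4 lower in Ob over Ctrl over all clusters, with a median log2 ratio of 0.60, against 18.1% of all genes called higher, 43.5% called lower and a median of -0.35. Without the testis and epididymis clusters 5 were called higher and 7 lower, with a median of 0.01, against 17%, 31.9% and a median of -0.16 for all genes. Of 18 genes of nucleic acid sensing, 17 had 50 counts in either setting. Of these 11 were called higher and 0 lower over all clusters (median 0.78), and 5 and 0 without those clusters (median 0.46). Of 14 receptor and JAK-STAT genes 7 were called higher and 1 lower (4 and 1 without those clusters), and of 14 genes induced by interferon gamma 6 and 1 (4 and 2). Ifi27l2a, an interferon-induced gene, stood at 197 CPM in Ob against 25.3 CPM in Ctrl (ratio 7.77, 7.36 to 8.22), and Trim25, the ubiquitin ligase that activates RIG-I, at 184 CPM in Ob against 42.0 CPM in Ctrl (ratio 4.39, 4.2 to 4.58). With those clusters left out the ratios were 5.38 (5.05 to 5.73) and 3.16 (3.0 to 3.32).

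Irf9 and Usp18 act directly with the members. Irf9 had a ratio of 1.57 (1.46 to 1.68) for Mid_Ob over Ctrl over all clusters, which is past the fold for a call, but of 1.04 (0.95 to 1.13) without the testis and epididymis clusters. All other comparisons of both genes between libraries stayed within 1.5-fold. Irf9 stood at 23.7 CPM in Ctrl, 37.2 CPM in Mid_Ob and 30.5 CPM in Ob. Usp18, which removes Isg15 from proteins and damps the receptor, stood at 9.63 CPM in Ctrl, 12.1 CPM in Mid_Ob and 12.2 CPM in Ob. Of the abundant receptor and sensing genes, Ifnar2 had a ratio of 2.16 (2.08 to 2.24) for Ob over Ctrl, Tlr4 2.77 (2.65 to 2.89) and Jak1 1.30 (1.26 to 1.33). Leaving out the testis and epididymis clusters gave 1.49 (1.43 to 1.56), 1.79 (1.71 to 1.88) and 1.02 (0.99 to 1.05), and Ifnar2 was no longer called.

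Within macrophage-like clusters 3 of the other 4 lists held genes called in both directions. Of the 40 other type I induced genes 37 had 50 counts in Ob over Ctrl. Among these 6 were called higher and 5 lower, with a median log2 ratio of -0.12, against 13.7%, 24.1% and a median of -0.08 for all genes. The interferon gamma list gave 3 higher and 4 lower of 14 with 50 counts. Nucleic acid sensing gave 2 and 1 of 17 with 50 counts, and receptors and JAK-STAT 3 and 0 of 13. The largest changes were in Ifi27l2a (ratio 5.43, 4.57 to 6.5), Oas1a, an enzyme that senses double-stranded RNA (2.58, 1.89 to 3.59), Trim25 (2.57, 2.39 to 2.77) and the chemokine Cxcl9 (2.5, 1.16 to 6.41), and, lower in Ob, in the GTPase Gbp3 (0.31, 0.23 to 0.42) and Ifi44 (0.36, 0.21 to 0.63). In adipocyte-like clusters 39 of the 40 other type I induced genes had 50 counts, of which 13 were called higher and 3 lower, against 18.8% and 27.6% of all genes. Without cluster 5 of Ob 6 were called higher and 14 lower, against 14.2% and 35.1%.

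**Figure D5:**
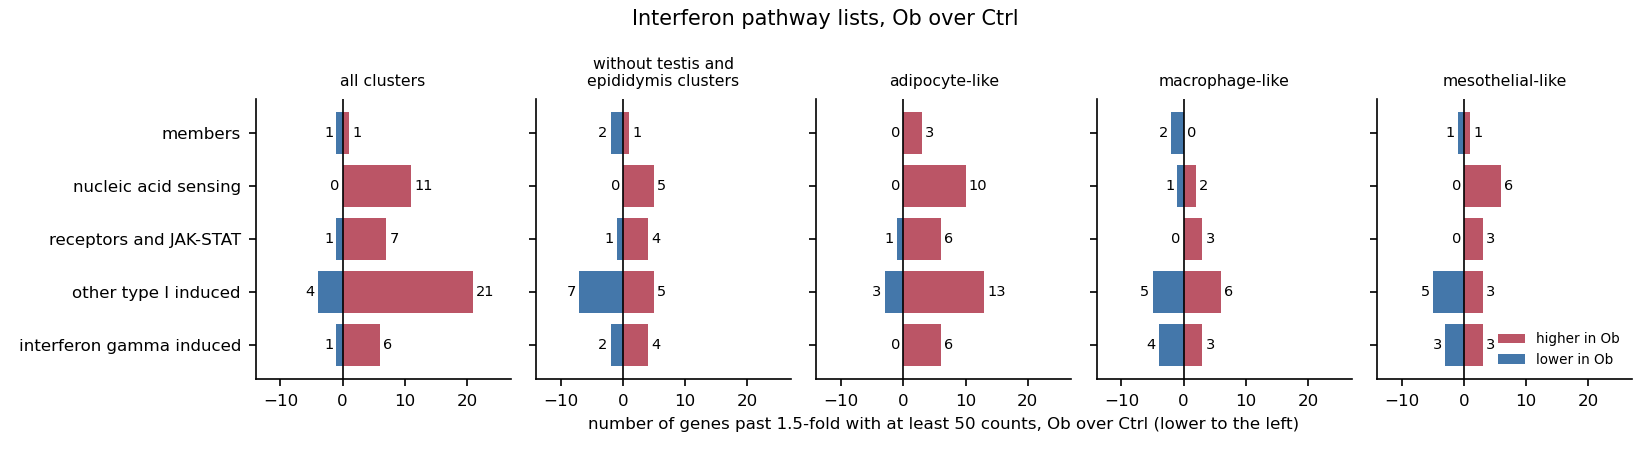
Number of genes of the members and of 4 other interferon lists called higher (right, red) or lower (left, blue) in Ob over Ctrl, over all clusters, without the testis and epididymis clusters and within 3 classes. The other type I induced genes give 21 higher and 4 lower over all clusters, and 5 higher and 7 lower without the testis and epididymis clusters.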

How the data were processed

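The authors sequenced nuclei of 3 pooled samples, counted reads with Cell Ranger and STAR, and deposited 1 table per library with 3 columns per cluster. The deposited mean count (unit: signal) is the UMI sum of a gene in a cluster over its summed size factors. Deposited log2 fold changes and p-values of a cluster against the rest were not used. Dividing each value by the smallest step of its cluster returned whole counts (100% within 0.001). Of the gene identifiers 29565 (99.8%) matched GENCODE M21. Clusters held 334383 to 36391957 UMIs. Ratios of CPM have conditional exact binomial intervals and levels exact Poisson intervals. On simulated data of 29625 genes the intervals held the ratio for 95.6% (Mid_Ob over Ctrl), 95.4% (Ob over Mid_Ob) and 95.4% (Ob over Ctrl) of genes with 50 counts. A cluster name needed 3 or more markers with 10 counts at over 2 times their median level elsewhere in the library. Named genes are the 9 members, the 4 genes of each list with most counts, Usp18, Irf9, Ifnb1, Ifng, a further gene that is not reported here, up to 6 called genes in macrophage-like clusters and the 10 most alike. Text examples are taken from these. The members and lists were chosen with earlier results of these data known. Alternatives covered scaling, weights, clusters, minimums and the fold. The tools were Python 3.11.15, pandas 2.3.3, scipy 1.17.1, matplotlib 3.10.9 and numpy 2.4.6.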

Additional observations from a re-analysis of the deposited data

Results flagged for a closer look

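Rsad2 was called in opposite directions in 2 classes under the same comparison. In Ob over Ctrl it was higher in adipocyte-like clusters, with a ratio of 1.96 and 8.18 CPM in Ob against 4.18 CPM in Ctrl, and lower in mesothelial-like clusters, with a ratio of 0.62 and 11.6 CPM in Ob against 18.5 CPM in Ctrl. With 1 library per stage the difference between the classes was not tested, and without cluster 5 of Ob the adipocyte-like ratio was 1.29.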

How the results depend on the processing

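No paired analysis was possible because each stage has 1 library. Numbers below are members called higher or lower. Over whole libraries, in Mid_Ob over Ctrl, 0 were higher and 5 lower without testis and epididymis clusters, 2 higher with equal weight for every cluster, 3 higher after scaling by the median of gene ratios, 0 higher at a minimum of 200 counts and 1 lower at a fold over 2. In Ob over Mid_Ob 1 was higher at a fold over 2, and without testis and epididymis clusters the 2 higher were Isg15 (1.58) and Rsad2 (2.93), with Ifit3 at 1.34. In Ob over Ctrl 2 were lower without testis and epididymis clusters, 3 higher without unnamed clusters, 2 higher and 0 lower with equal weight, 5 higher and 0 lower after scaling, 0 lower at a fold over 2, and 2 higher without the 4 clusters richest in mitochondrial transcripts, an alternative chosen after seeing the data. In macrophage-like clusters, in Mid_Ob over Ctrl, 3 were lower at a minimum of 10 counts and 0 at 200. In Ob over Mid_Ob 1 was higher and 0 lower at 200 counts, 1 higher and 0 lower at a fold over 2, 0 lower with equal weight, and as few as 1 higher and 0 lower on leaving out one cluster in turn. In Ob over Ctrl 1 was higher and 1 lower with equal weight, 0 lower at 200 counts and 1 lower at a fold over 2, and up to 2 were higher and 0 to 4 lower on leaving out one cluster in turn. In adipocyte-like clusters, in Mid_Ob over Ctrl, 2 were higher at a minimum of 10 counts, and 0 were higher and 0 lower at 200 counts or a fold over 2. In Ob over Mid_Ob 2 were higher and 1 lower without cluster 5 of Ob, which was also the most on leaving out one cluster in turn. In Ob over Ctrl 1 was higher at a fold over 2, and 1 without cluster 5 of Ob, also the fewest on leaving out one cluster in turn. The alternatives without cluster 5 of Ob, the pathway lists without testis and epididymis clusters, and endothelial-like Rsad2 without cluster 16 of Ob, were also chosen after seeing the data. Without Stat2, cluster 3 of Ctrl came at place 2 in the order of sums. Without testis and epididymis clusters 4 of the 10 genes most like the members stayed. Stricter minimums and folds lower a count by construction, and for the rest the cause was not tested. Of 568 single ratios under an alternative, 488 stayed within the 95% interval of the main value, 80 moved beyond it and 0 changed the sign of a call. A change of sign was looked for only where the main ratio was called, so the last number says nothing on uncalled ratios. Some of those turned direction, as in Ob over Ctrl without the testis and epididymis clusters. Depth limits the low members most, since Isg15 and the Ifit genes have under 50 counts in many classes.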

Other observations

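Of the pathway genes outside the members, Ifi27l2a and Trim25 differed in where their Ob levels lay. Ifi27l2a was highest in the clusters rich in mitochondrial transcripts, at 2686 CPM in cluster 18 and 1702 CPM in cluster 13 of Ob, followed by 798 CPM in cluster 16 and 354 CPM in the macrophage-like cluster 14. The same held in Mid_Ob, with 224 CPM in cluster 5, and in Ctrl, with 139 CPM in cluster 1. Trim25 was highest in the macrophage-like clusters 1 and 2 of Ob, at 580 and 518 CPM. The dividing cluster 10 followed at 383 CPM and the macrophage-like cluster 3 at 369 CPM. The other macrophage-like clusters of Ob were lower, at 250 CPM in cluster 11, 276 CPM in cluster 14 and 226 CPM in cluster 20. Clusters 6 and 19 of Ob, outside that class, each had 232 CPM. Macrophage-like levels were 214 CPM in cluster 11 and 128 CPM in cluster 9 of Ctrl, and 192 CPM in cluster 4 of Mid_Ob.

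Usp18 had the lymphocyte-like cluster at or near the top of each library. It stood there at 17.3 CPM in Ctrl, 30.4 CPM in Mid_Ob and 40.2 CPM in Ob. Cluster 4 of Ctrl and cluster 6 of Ob, unnamed clusters with high sums of the members, had Usp18 at 26.6 and 32.8 CPM.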
